A study of Mus musculus with 12 samples.

Results

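The 7 genes described here encode proteins of the secondary and tertiary granules of neutrophils: Ltf, Lcn2, Camp, Ngp, Mmp8, Mmp9, and Cd177. They were named as a list, and all 7 are among the 23309 mouse genes of the deposited FPKM table. All 7 passed the filter on low values, Mmp9 only through its libraries at 96 h. FPKM counts sequenced fragments per length of transcript, so that levels can be set side by side between genes. RNA-seq was done on 12 libraries in 6 groups of 2: wild-type and HMGN1-OE progenitors taken 0, 36, or 96 h after estradiol (E2) was withdrawn. The study asked how extra HMGN1, a nucleosome-binding protein, alters myeloid differentiation.

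All cultures came from CD117+ bone marrow of C57BL/6 mice and were immortalized with a retrovirus that carries an ER-HoxB8 fusion, which holds the cells as progenitors while E2 is present. They were grown in IL-3 and E2, and differentiation began when E2 was removed. HMGN1-OE cells came from mice with a human HMGN1 transgene, and wild-type cells came from littermates without it. The promoter of the transgene, the age of the donors, and whether a culture grew from 1 clone are not given in the sources used here. Human HMGN1 was not analysed here. Each library is a bulk culture, in which fewer cells of a type and less RNA per cell cannot be told apart.

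Neutrophils build their granules in waves. Primary (azurophil) granule proteins are made at the promyelocyte stage, secondary (specific) granule proteins at the myelocyte and metamyelocyte stages, and tertiary (gelatinase) granule proteins in band cells. Each granule takes up the proteins that are transcribed while it forms. Transcription of secondary granule genes is known to depend on C/EBP factors, C/EBP epsilon above all.

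The promoters of Ltf, Camp, Ngp, and Mmp8 are shown because the first 3 moved together in the data while Mmp8 did not, and because all 4 lie on chromosome 9. The sequences are the 250 bases before the RefSeq gene start in GRCm38.p6, read 5′ to 3′ on the strand of the gene. Capitals mark TTNNGCAA, a C/EBP-type motif, and GAGGAA, a PU.1-type motif (TTCCTC when it is on the opposite strand).
Ltf, chr9:111019042-111019291, plus strand: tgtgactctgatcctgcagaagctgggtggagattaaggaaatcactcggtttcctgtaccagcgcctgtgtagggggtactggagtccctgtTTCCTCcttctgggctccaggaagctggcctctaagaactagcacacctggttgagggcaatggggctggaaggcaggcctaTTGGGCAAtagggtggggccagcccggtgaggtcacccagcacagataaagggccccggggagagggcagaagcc
Camp, chr9:109849457-109849706, minus strand: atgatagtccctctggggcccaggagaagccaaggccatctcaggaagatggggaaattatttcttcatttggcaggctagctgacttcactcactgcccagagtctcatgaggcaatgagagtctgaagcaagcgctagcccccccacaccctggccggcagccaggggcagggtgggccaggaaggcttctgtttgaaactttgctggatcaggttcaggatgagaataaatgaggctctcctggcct
Ngp, chr9:110419558-110419807, plus strand: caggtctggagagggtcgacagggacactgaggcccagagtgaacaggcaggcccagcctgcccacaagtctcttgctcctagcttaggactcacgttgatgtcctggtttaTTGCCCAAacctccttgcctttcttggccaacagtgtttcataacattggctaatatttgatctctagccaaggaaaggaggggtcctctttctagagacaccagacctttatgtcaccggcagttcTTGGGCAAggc
Mmp8, chr9:7558179-7558428, plus strand: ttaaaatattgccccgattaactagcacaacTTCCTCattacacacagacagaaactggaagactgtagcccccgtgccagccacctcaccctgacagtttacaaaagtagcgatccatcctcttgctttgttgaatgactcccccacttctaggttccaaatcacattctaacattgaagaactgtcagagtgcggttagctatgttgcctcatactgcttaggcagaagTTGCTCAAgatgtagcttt
Promoters of 6 of the 7 genes were matched by symbol, all but that of Mmp9. TTNNGCAA was found on either strand in 4 of the 6, those of Ltf, Lcn2, Ngp, and Mmp8, against 9.55% of 27025 mouse promoters of the same length. Ngp had 2 matches, and no match lay in the windows of Camp and Cd177. GAGGAA was found in 4 of the 6, those of Ltf, Lcn2, Mmp8, and Cd177, against 23.1% of all promoters. The motifs do not overlap each other in these windows. Matching letters say nothing on whether a factor binds there.

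Per the study's methods the values were scaled to synthetic ERCC RNAs added to a fixed number of cells, so sums over genes differ between libraries. They lay between 228955 and 559135 FPKM at 96 h and at 680258 FPKM or above at 0 and 36 h. Read depth cannot be had from these values. The 2 libraries of a group are called first and second by name only, since the columns are not tied to the numbers in the sample titles. The most frequent value of each library was near 0.1 FPKM, shared by 6202 genes and taken here as the level of genes without signal. Mouse Hmgn1 was between 85.7 and 200.6 FPKM at 0 and 36 h and between 4.71 and 20.7 FPKM at 96 h, and the genotypes overlapped at all 3 times. Of 6 neutrophil maturation markers tested, the 96 h libraries of HMGN1-OE cells had higher levels than at 0 h for all 6, and those of wild-type cells for 5, with S100a9 called lower. Lymphoid markers summed to at most 2.07 FPKM in any library and erythroid markers to at most 40.6 FPKM. Basophil and mast cell markers summed to between 436 and 1055 FPKM at 0 h and between 890 and 2739 FPKM at 36 h. At 96 h they summed to between 122 and 523 FPKM. S100a9 was listed at 0.0511 FPKM in the first wild-type library at 96 h and at 26546 FPKM in the second, while S100a8 lay between 29366 and 83718 FPKM in all 4 libraries of that time. Shares of all FPKM are therefore given with and without S100a8 and S100a9.

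Between 0 and 96 h, 6 of the 7 genes rose in wild-type cells and the same 6 rose in HMGN1-OE cells. Ngp, Camp, Ltf, and Lcn2, the 4 with the highest levels, had group means between 1034 and 9742 FPKM at 96 h. Mmp8 did not rise on the deposited scale. The test throughout is limma on log2(FPKM + 1) over 11516 genes that reached 1 FPKM in 2 or more libraries. On this scale, changes of low genes come out too small. A gene is called at an adjusted p-value under 0.05.

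Ngp encodes neutrophilic granule protein, a member of the cystatin family. In wild-type cells it was at 132 and 53.7 FPKM at 0 h, 68.3 and 41.1 FPKM at 36 h, and 13801 and 5683 FPKM at 96 h. In HMGN1-OE cells it was at 149.9 and 86.4 FPKM at 0 h, 26.5 and 4.62 FPKM at 36 h, and 7536 and 7906 FPKM at 96 h. All 4 libraries at 96 h were above all others, and at that time both HMGN1-OE libraries lay between the wild-type libraries. At 96 h Ngp ranked 3 and 4 among all genes in the wild-type libraries and 5 in both HMGN1-OE libraries. Mean FPKM was 105 times higher at 96 h than at 0 h in wild-type cells, and the log2 difference was 6.70 (SE 0.60). In HMGN1-OE cells it was 65.4 times higher, with a log2 difference of 6.07 (SE 0.60).

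Camp encodes the cathelicidin CRAMP, an antimicrobial peptide precursor of secondary granules. It was at 84.6 and 31.1 FPKM at 0 h, 28.1 and 19.5 FPKM at 36 h, and 7470.1 and 2609 FPKM at 96 h in wild-type cells. In HMGN1-OE cells it was at 75.1 and 35.9 FPKM at 0 h, 9.20 and 1.51 FPKM at 36 h, and 3818 and 5112 FPKM at 96 h. As with Ngp, the HMGN1-OE libraries at 96 h lay between the wild-type libraries. The rise from 0 to 96 h was 87.1 times in wild-type and 80.5 times in HMGN1-OE cells, with log2 differences of 6.40 and 6.38 (SE 0.58).

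Ltf encodes lactoferrin, the iron-binding protein that defines secondary granules. Wild-type cells had 15.9 and 7.19 FPKM at 0 h, 1.46 and 1.97 FPKM at 36 h, and 2039.8 and 1033 FPKM at 96 h. HMGN1-OE cells had 22.0 and 15.8 FPKM at 0 h, 3.13 and 0.361 FPKM at 36 h, and 1212 and 856 FPKM at 96 h. The second HMGN1-OE library at 36 h was near the level of genes without signal, and at 96 h the genotypes overlapped. Ltf was 133 times higher at 96 h than at 0 h in wild-type cells and 54.6 times higher in HMGN1-OE cells. The log2 differences were 6.95 and 5.69 (SE 0.54).

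Lcn2 encodes lipocalin 2, which binds bacterial siderophores. Its level before 96 h stayed between 31.1 and 80.9 FPKM. Wild-type cells had 38.6 and 59.1 FPKM at 0 h, 80.9 and 36.0 FPKM at 36 h, and 2768 and 1478 FPKM at 96 h. HMGN1-OE cells had 41.6 and 32.0 FPKM at 0 h, 33.8 and 31.1 FPKM at 36 h, and 1821 and 1659.8 FPKM at 96 h. At 96 h every library was above every library of 0 and 36 h. The rise from 0 h was 43.5 times in wild-type cells (log2 difference 5.37, SE 0.58) and 47.3 times in HMGN1-OE cells (5.54, SE 0.58).

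Cd177 encodes a glycoprotein of the secondary granule membrane and the neutrophil surface, a partner of PECAM1. Its FPKM was 4.16 and 1.70 at 0 h, 0.878 and 0.684 at 36 h, and 244 and 91.7 at 96 h in wild-type cells. In HMGN1-OE cells it was 2.02 and 1.62 at 0 h, 1.02 and 0.366 at 36 h, and 267 and 248 at 96 h. At 96 h both HMGN1-OE libraries were above both wild-type libraries, the opposite order to that of Mmp9. Cd177 rose 57.3 times in wild-type cells and 142 times in HMGN1-OE cells, with log2 differences of 5.34 and 6.52 (SE 0.48).

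Mmp9 encodes gelatinase B, the marker enzyme of tertiary granules. It was close to the level of genes without signal at 0 and 36 h in both genotypes, at 0.142 and 0.191 FPKM, then 0.179 and 0.201 FPKM, in wild-type cells, and at 0.246 and 0.387 FPKM, then 0.194 and 0.179 FPKM, in HMGN1-OE cells. At 96 h it was at 9.25 and 21.7 FPKM in wild-type cells and at 3.80 and 1.75 FPKM in HMGN1-OE cells. The genotypes did not overlap at 96 h. The log2 difference from 0 to 96 h was 3.71 for wild-type and 1.47 for HMGN1-OE cells (SE 0.35). No fold of FPKM is given, since the levels at 0 h are near 0.1. Only the 96 h libraries brought this gene past the filter, so a higher level at 96 h was built into its test. With no filter limma still called it in both genotypes.

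Mmp8 encodes neutrophil collagenase, an enzyme of secondary granules. Wild-type cells had 55.7 and 204 FPKM at 0 h, 58.2 and 40.7 FPKM at 36 h, and 33.4 and 60.4 FPKM at 96 h. HMGN1-OE cells had 55.6 and 63.3 FPKM at 0 h, 7.09 and 5.34 FPKM at 36 h, and 15.3 and 12.5 FPKM at 96 h. From 36 h on, both HMGN1-OE libraries were below both wild-type libraries. In wild-type cells Mmp8 was called lower at 96 h than at 0 h as deposited, by a log2 difference of -1.23 (SE 0.53, adjusted p = 0.0273, limma), but stood at 0.62 (adjusted p = 0.355) with libraries centred on the median gene. Without the second wild-type library at 0 h the difference as deposited was -0.30 (adjusted p = 0.651). In HMGN1-OE cells it was -2.03 as deposited (adjusted p = 0.000538) and -0.72 after centring (adjusted p = 0.295).

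**Figure D1:**
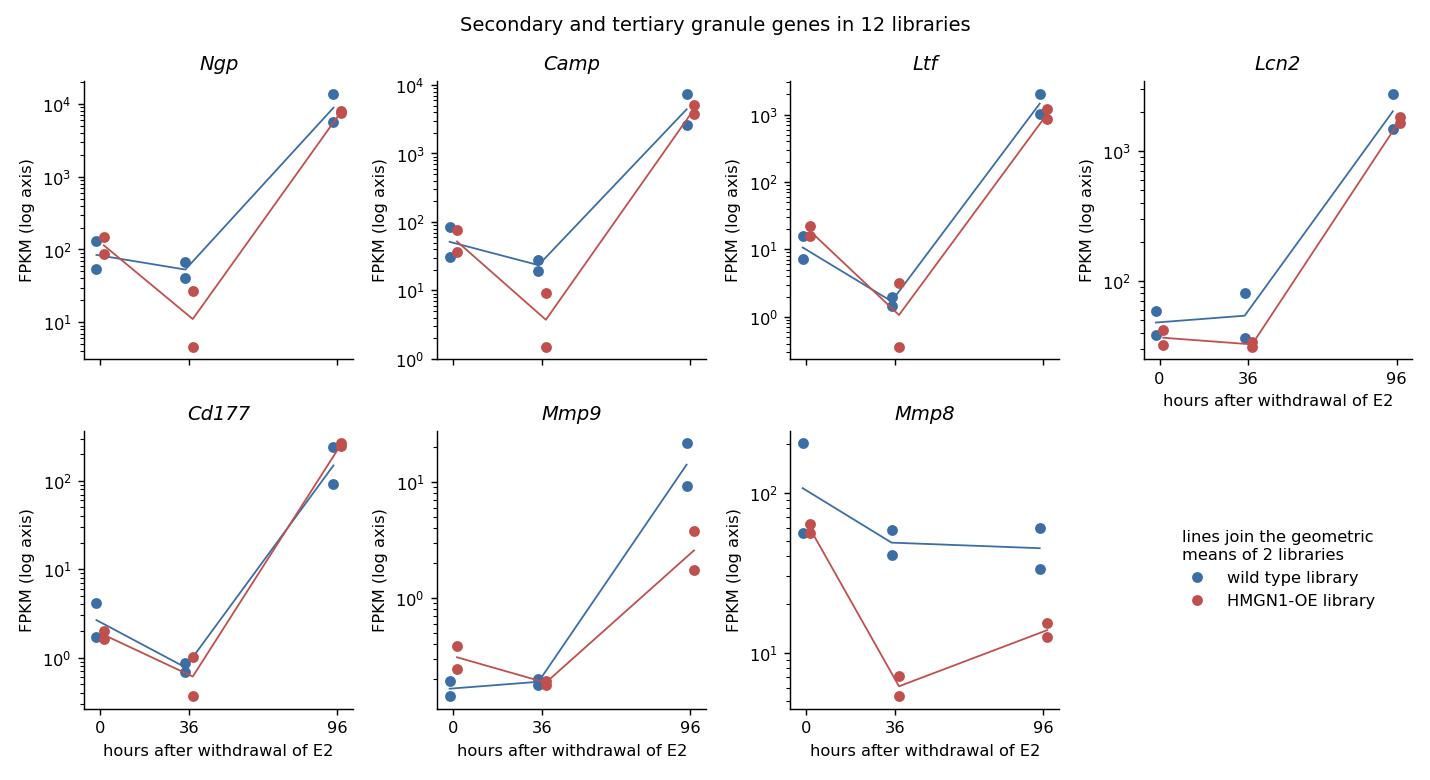
FPKM of the 7 granule genes (log axis) against hours after withdrawal of E2 in wild-type and HMGN1-OE libraries. Points are libraries and lines join the geometric means of the 2 libraries of a group; 6 genes have their highest values at 96 h, and Mmp8, whose fall in wild-type cells is not seen after centring, stays between 33.4 and 204 FPKM there.

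The rises are set against a table in which most genes fell at 96 h on the deposited scale. The median log2 difference of all tested genes between 0 and 96 h was -1.75 in wild-type cells and -1.28 in HMGN1-OE cells. In wild-type cells 4.31% of the tested genes were called higher and 77.2% lower, and in HMGN1-OE cells 5.08% were called higher and 62.4% lower. Of the 7 genes, 6 were called higher and 1 lower in each genotype. The 6 include Mmp9, whose higher level at 96 h was built in by the filter. After each library was centred, 36.5% of tested genes were called higher for wild-type and 30.9% for HMGN1-OE cells, and the same 6 of the 7 genes were called higher in both. Their adjusted p-values on the deposited scale (limma) ran from 1.59e-35 for Ltf to 2.30e-18 for Lcn2 in wild-type cells, and from 2.97e-39 for Cd177 to 0.000113 for Mmp9 in HMGN1-OE cells. Such small values rest on the variance trend over all genes and not on a gene's own 2 libraries a group. After centring they ran from 3.44e-06 (Lcn2) to 7.63e-05 (Mmp9) in wild-type cells. In HMGN1-OE cells they then ran from 7.84e-06 (Lcn2) to 0.00499 (Mmp9).

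Ordered by the rise from 0 to 96 h in wild-type cells, Ltf was gene 4 of 11516, Ngp gene 6, Camp gene 9, Lcn2 gene 25, Cd177 gene 26, and Mmp9 gene 66. In HMGN1-OE cells Cd177 was gene 6, Camp gene 10, Ngp gene 15, Ltf gene 22, Lcn2 gene 25, and Mmp9 gene 341. Mmp8 stood within the bulk of the genes in both, at 3700 and 9174.

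**Figure D2:**
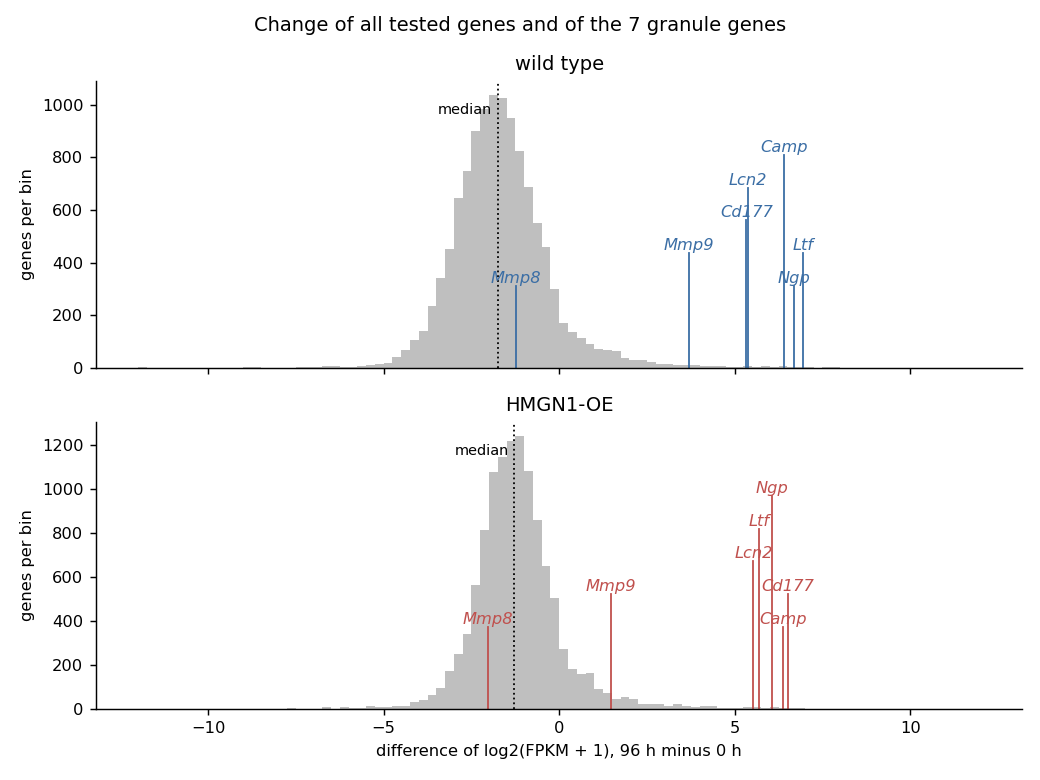
Histogram of the difference of log2(FPKM + 1) between 96 and 0 h for 11516 genes in bins of 0.25, with the 7 granule genes as lines and the median as a dotted line. Most genes fell, with medians of -1.75 and -1.28, and 5 granule genes lie above 5 in both genotypes, Mmp9 is lower in HMGN1-OE cells, and Mmp8 sits near the median, on the other side of 0 in wild-type cells when libraries are centred.

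From 36 to 96 h the same 6 genes were called higher in both genotypes, against 3.15% of tested genes for wild-type and 4.02% for HMGN1-OE cells. Mmp9 is among the 6 but passed the filter through its 96 h libraries alone, so its higher level at 96 h was built in. The log2 differences in wild-type cells were 9.07 for Ltf, 7.50 for Camp, 7.36 for Ngp, 6.40 for Cd177, 5.20 for Lcn2, and 3.68 for Mmp9. In HMGN1-OE cells they were 9.77 for Camp, 9.28 for Ngp, 8.75 for Ltf, 7.28 for Cd177, 5.70 for Lcn2, and 1.61 for Mmp9. Mmp8 was not called, with -0.11 (adjusted p = 0.841, limma) for wild-type and 1.05 (adjusted p = 0.0687) for HMGN1-OE cells. The latter was called when either wild-type library of 0 h or of 96 h was left out (adjusted p = 0.0276 to 0.0424) and when only the libraries compared were fitted. With each library centred it was called higher in both, at 2.21 and 2.39, against 38.2% and 28.6% of all tested genes.

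Before the rise, several of the genes fell. From 0 to 36 h Camp, Ltf, Ngp, and Mmp8 were called lower in HMGN1-OE cells, 4 of the 7 genes against 1.12% of tested genes. The log2 differences were -3.39 for Camp, -3.21 for Ngp, -3.08 for Mmp8, and -3.05 for Ltf, with adjusted p-values up to 1.09e-05 (limma). In mean FPKM, Camp fell from 55.5 to 5.36 and Mmp8 from 59.5 to 6.21. In wild-type cells Ltf alone of the 7 was called lower, at -2.12 (adjusted p = 0.0162), against 0.261% of tested genes. The second HMGN1-OE library at 36 h had the lower value for all 7 genes. Without it Mmp8 alone was called, and after centring none was, with adjusted p-values of 0.0714 to 0.118 and differences of -3.08 to -3.42 for the 4 genes. Ltf in wild-type cells had a centred difference of -2.60 and was not called. On the deposited scale it was also not called by limma without trend or with robust fitting, or by linear models without moderation.

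The change from 0 to 36 h was not shown to differ between genotypes. No member was called for the interaction of genotype with this interval (limma), where 0.504% of tested genes were, and 3 of the 7 had an unadjusted p-value under 0.05. Unmoderated linear models called none either.

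At 0 h none of the 7 genes was called between genotypes by limma, and none had an unadjusted p-value under 0.05, while 1.36% of tested genes were called. The linear model without moderation called none. Libraries of the genotypes overlapped for 6 genes. For Mmp9 both HMGN1-OE libraries were higher, at 0.246 and 0.387 FPKM against 0.142 and 0.191 FPKM, a pattern that 3.26% of tested genes had. After centring Mmp9 overlapped, and Lcn2 was lower in both HMGN1-OE libraries, as were 17.9% of tested genes. Among markers of other cells, the basophil and mast cell marker Prss34 was called higher in HMGN1-OE cells at 0 h, at 2.60. It was at 34.2 and 14.7 FPKM in wild-type and at 256 and 78.5 FPKM in HMGN1-OE libraries. Of 2 erythroid markers tested, with differences of 1.23 and 1.30, 1 was called higher. None of these markers was called after centring.

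At 36 h Mmp8, Camp, and Ngp were called lower in HMGN1-OE cells, 3 of the 7 genes against 0.842% of tested genes called lower. Mmp8 had 49.4 FPKM on average in wild-type cells and 6.21 FPKM in HMGN1-OE cells, a log2 difference of -2.79 (SE 0.53, adjusted p = 3.15e-05, limma). Camp had 23.8 and 5.36 FPKM, a difference of -2.27 (adjusted p = 0.00961, limma), and Ngp 54.7 and 15.6 FPKM, a difference of -2.12 (adjusted p = 0.0328). For Camp and Ngp the differences were -1.26 and -0.97 without the second HMGN1-OE library at 36 h, and -1.69 and -1.54 after centring. Both HMGN1-OE libraries were below both wild-type libraries for Mmp8, Camp, Ngp, and Lcn2 as deposited. Of all tested genes 84.4% had that pattern on the deposited scale, and the median gene was 0.54 lower in HMGN1-OE cells. With each library centred, 9.49% of tested genes had it, Mmp8 and Camp among them, and Ngp did not. On that scale Mmp9 and Cd177 were higher in both HMGN1-OE libraries, as were 26% of tested genes. No member was then called (adjusted p = 0.697 for Mmp8, centred difference -2.21), and as deposited Mmp8 alone stayed called when the second HMGN1-OE library, or either wild-type library, of 36 h was left out. Ngp was further lost without either HMGN1-OE library of 0 h or of 96 h.

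A few markers of maturation and of other cells were also called at 36 h on the deposited scale. The median gene at that time was 0.54 lower in HMGN1-OE cells, and none of 6 basophil and mast cell markers was called between genotypes. Of the 6 neutrophil maturation markers tested, S100a9 was called lower in HMGN1-OE cells (-2.62, adjusted p = 0.00238, limma), as it was from 0 to 36 h in HMGN1-OE cells (-3.33). At 36 h it was at 440 and 276 FPKM in wild-type and at 158 and 19.4 FPKM in HMGN1-OE libraries. Chi3l3, of the same granules as the 7 genes, was called lower as well (-2.10, adjusted p = 0.0293). Of 6 monocyte and macrophage markers tested, Irf8 was called lower in HMGN1-OE cells (-1.49, adjusted p = 0.0412, limma), and the list summed to 141 and 146 FPKM in wild-type and to 45.2 and 71.1 FPKM in HMGN1-OE libraries. Of 4 eosinophil markers tested, Prg2 was called lower (-2.09, adjusted p = 0.0108, limma). It was at 49.2 and 5.80 FPKM in wild-type and at 5.30 and 1.99 FPKM in HMGN1-OE libraries. Sums over the list were 16.0 to 70.1 FPKM in wild-type and 9.55 to 12.1 FPKM in HMGN1-OE libraries. From 0 to 36 h in HMGN1-OE cells Epx and Prg2 were called lower, at -1.61 and -1.93. The mast cell and basophil marker Ms4a2 was called higher there, at 1.86, and its libraries of the 2 times did not overlap. It was also called higher in wild-type cells, at 1.87, but there the times overlapped. The wild-type libraries at 36 h had 62.0 and 8.52 FPKM of Ms4a2, and the second lay below the second wild-type library at 0 h. None of these calls was made after centring. The centred differences between genotypes at 36 h were -2.04 for S100a9, -1.52 for Chi3l3, -0.91 for Irf8, and -1.51 for Prg2. Those from 0 to 36 h in HMGN1-OE cells stayed about as large, at -3.36 for S100a9, -1.64 for Epx, -1.96 for Prg2, and 1.83 for Ms4a2, and that of Ms4a2 in wild-type cells was 1.39. The part of these cells and of maturation in the 36 h levels of the granule genes was not tested.

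At 96 h Mmp9 was called lower in HMGN1-OE cells, 1 of the 7 genes against 0.347% of tested genes called lower. Its log2 difference was -2.07 (SE 0.35, adjusted p = 1.06e-06, limma). Mmp8 had the next lowest difference, -1.63 (SE 0.53), which was not called (adjusted p = 0.253). The median gene was 0.36 higher in HMGN1-OE cells. Both HMGN1-OE libraries were below both wild-type libraries for these 2 metalloproteinases, on the deposited scale as for 2.97% of tested genes and after centring as for 22.6%. For Cd177 both were above on the deposited scale, as for 10.2% of tested genes, and the centred values overlapped. Ngp, Camp, Ltf, and Lcn2 overlapped as deposited, whereas after centring both HMGN1-OE libraries were lower for all 4. The call of Mmp9 was lost with centring (difference -2.47, adjusted p = 0.218), and without the second HMGN1-OE library (-1.67, adjusted p = 0.0552). Without the first wild-type library Mmp8 was called too (-2.05, adjusted p = 0.0262).

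The rise of Mmp9 from 0 to 96 h was smaller in HMGN1-OE cells. The interaction of genotype with time was -2.24 (SE 0.49, adjusted p = 0.00106, limma), and Mmp9 was the 1 of the 7 genes called, against 0.677% of tested genes. The call was lost with centring, at -2.78 (adjusted p = 0.462), without the second HMGN1-OE library at 96 h (-1.84, adjusted p = 0.24), and without the second wild-type library at 96 h (-1.67, adjusted p = 0.148). It was also lost with a pseudocount of 0.1 or 0.01 in place of 1.

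**Figure D3:**
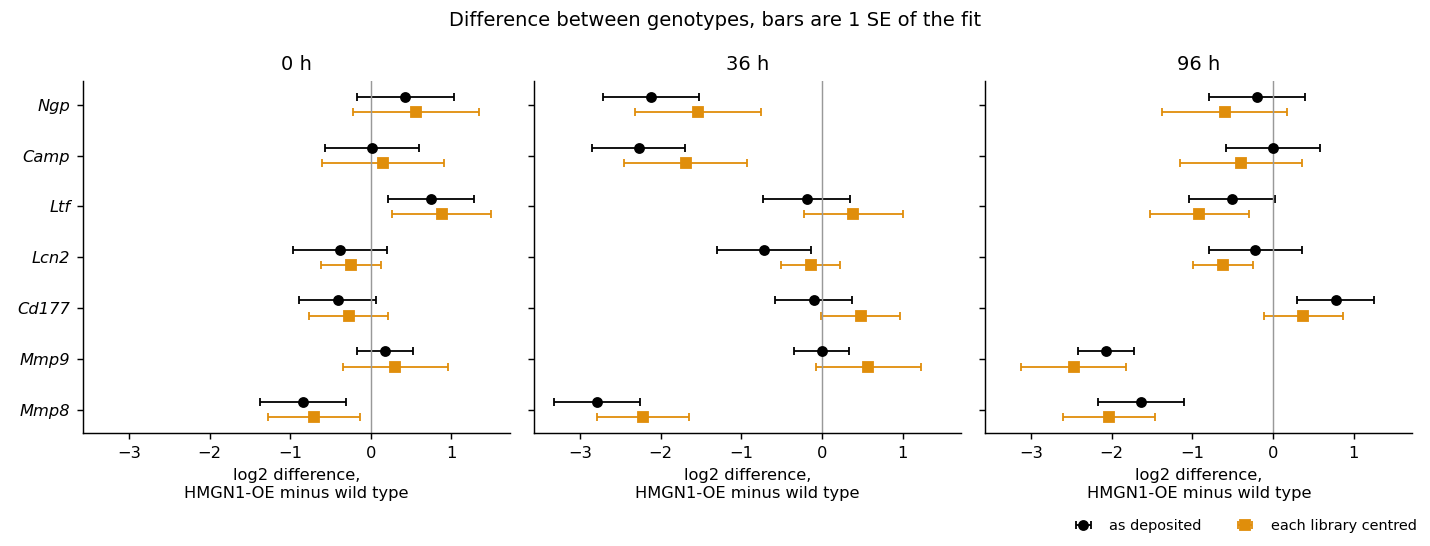
Difference of log2(FPKM + 1), HMGN1-OE minus wild type, for the 7 genes at 0, 36, and 96 h, as deposited (circles) and after centring on the library median (squares), with bars of 1 SE. Mmp8, Camp, and Ngp lie left of 0 at 36 h and Mmp9 and Mmp8 at 96 h on both scales, while for Ltf, Mmp9, and Cd177 at 36 h the sign changes with the scale.

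Together the 7 genes took 4.79% and 5.86% of all FPKM in the wild-type libraries at 96 h and 2.83% and 3.62% in the HMGN1-OE libraries. A share is not altered by a constant factor between libraries. At 0 h the shares were between 0.0281% and 0.0486%, and at 36 h between 0.00484% and 0.0194%. The mean share at 96 h was 139 times that at 0 h in wild-type cells and 97.2 times in HMGN1-OE cells. At 96 h both HMGN1-OE libraries were lower, with a mean of 3.22% ± 0.56 against 5.33% ± 0.75 (SD, n = 2), a difference of -2.11 percentage points. An exact two-sided permutation test gave p = 0.333, the smallest that 2 libraries against 2 allow. With S100a8 and S100a9 left out of the sum, a choice made after their values were seen, the shares at 96 h were 6.34% and 6.94% in wild-type and 3.93% and 4.91% in HMGN1-OE cells. Ngp and Camp made up most of each sum at 96 h, with 1.41% to 3.07% of all FPKM for Ngp and 0.914% to 1.66% for Camp.

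**Figure D4:**
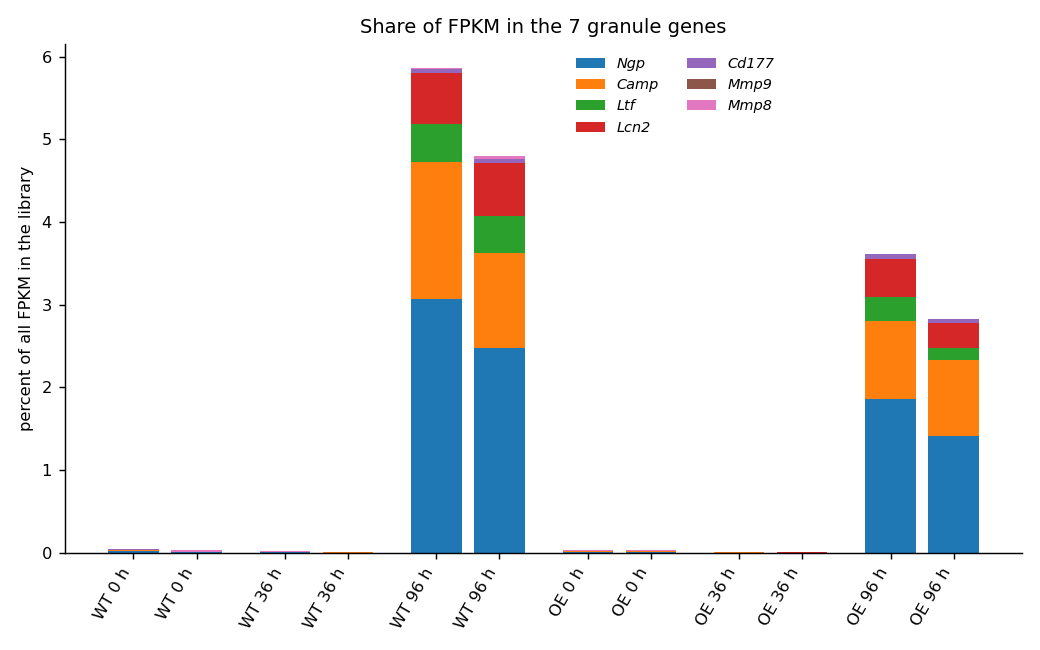
Stacked bars of the share of all FPKM (percent) held by each of the 7 genes in each of the 12 libraries, WT for wild type and OE for HMGN1-OE. The bars are near 0 at 0 and 36 h and reach 4.79% and 5.86% in wild-type and 2.83% and 3.62% in HMGN1-OE libraries at 96 h.

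Among themselves the genes kept unequal proportions. The ratio of Camp to Ngp FPKM in the same library stayed between 0.326 and 0.647 over all 12 libraries, a range of 1.98 times. The ratio of Ltf to Ngp ranged over 8.56 times, or 3.82 times without the first wild-type library at 36 h. That of Lcn2 to Ngp ranged over 33.6 times, or 6.35 times without the second HMGN1-OE library at 36 h. That of Mmp8 to Ngp ranged over 2405 times, or 732 times without the second wild-type library at 0 h. Over the 12 libraries Pearson's r of log2(FPKM + 1) was at least 0.81 for the 15 pairs without Mmp8 and between -0.16 and 0.04 for the 6 pairs with it. After centring r was at least 0.89 and between 0.39 and 0.52. These values describe 12 libraries that fall into 96 h and earlier times.

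The spread between the libraries of a group differed with the gene. In wild-type cells at 96 h the first library was the higher for Ngp, Camp, Ltf, Lcn2, and Cd177, by 1.87 to 2.86 times, and the second was the higher for Mmp9 and Mmp8, by 2.35 and 1.81 times. In HMGN1-OE cells at 36 h the first library was higher for Ltf by 8.68 times, for Camp by 6.10 times, and for Ngp by 5.73 times. The standard errors above come from the trend of variance with level over all genes: for Camp the SD of its own libraries was 0.91 on the log2 scale against 0.58 on the trend.

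Other genes of the same granules were described from a list of 21, of which 19 were tested. In wild-type cells 14 were called higher between 0 and 96 h, against 4.31% of all tested genes, and 2 lower. Their median difference was 2.64 against -1.75 over all genes. In HMGN1-OE cells 14 were called higher, against 5.08%, and 1 lower, with a median of 3.70 against -1.28. Olfm4, the granule glycoprotein olfactomedin 4, had differences of 6.03 and 6.05 in wild-type and HMGN1-OE cells, Chi3l3, a chitinase-like lectin, 5.89 and 6.90, and Cybb, the membrane subunit of the NADPH oxidase, 5.85 and 5.74. Of the 14 in each genotype, Fpr1 was at most 0.19 FPKM at 0 and 36 h and passed the filter through 96 h libraries alone, so its higher level at 96 h was built in. Slpi, a protease inhibitor, was the lowest of the list in both, at -3.78 and -3.74. From 0 to 36 h in HMGN1-OE cells Chi3l3 (-2.84) and Olfm4 (-1.88) were called lower with the 4 granule genes above, and Fcnb, a ficolin, was called higher at 3.78. After centring 1 of the 19, Fcnb, was called higher over this interval (3.75) and none lower, with differences of -2.87 for Chi3l3 and -1.91 for Olfm4. In wild-type cells none of the 19 was called over that interval by limma, and 5 had an unadjusted p-value under 0.05. The interaction of genotype with time from 0 to 96 h was 3.00 for Fcnb (adjusted p = 0.0166), a call lost after centring at 2.47 (adjusted p = 0.422, limma). With each library centred, 17 of the 19 were called higher at 96 h in each genotype, against 36.5% of all tested genes for wild-type and 30.9% for HMGN1-OE cells.

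Among primary granule genes, Mpo and Elane started lower in HMGN1-OE cells. At 0 h Mpo (myeloperoxidase) was at 2107 and 4406 FPKM in wild-type and at 540 and 642 FPKM in HMGN1-OE cells, and Elane (neutrophil elastase) at 409 and 867 FPKM and at 106 and 74.0 FPKM. Both were called lower, at -2.37 and -2.74 (adjusted p = 0.0109 and 0.00066, limma). Of 9 tested, wild-type cells had 8 called lower between 0 and 96 h, when 77.2% of all tested genes were, and their median was -2.59 against -1.75. HMGN1-OE cells had 4 called lower, against 62.4% of all tested genes, and 1 higher, with a median of -0.77 against -1.28. Ctsg (cathepsin G) had -6.79 and -4.09, Mpo -6.21 and -1.45, and Elane -3.46 and 1.78 in wild-type and HMGN1-OE cells. From 0 to 36 h, when 4 of the 7 genes fell in HMGN1-OE cells, Elane (4.06), Mpo (2.44), and Prtn3 (2.24), which encodes proteinase 3, were called higher there. At 96 h Elane, Ctsg, and Mpo were called higher in the HMGN1-OE libraries than in wild type, at 2.50, 2.48, and 2.39. Mpo overlapped, at 116 and 13.5 FPKM in wild-type and 114 and 406 FPKM in HMGN1-OE libraries. Elane was at 129 and 21.7 FPKM against 168 and 554 FPKM, and Ctsg at 107 and 20.6 FPKM against 151 and 479 FPKM. The second wild-type library was the lowest for all of them. After centring none of these calls at 36 h or between genotypes was made, although the differences changed little. Those at 0 h were then -2.24 for Mpo and -2.61 for Elane, those from 0 to 36 h reached 4.03 for Elane, and those at 96 h were 1.99 for Mpo, 2.08 for Ctsg, and 2.09 for Elane. The centred median change from 0 to 96 h was -0.74 for wild-type and 0.54 for HMGN1-OE cells.

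**Figure D5:**
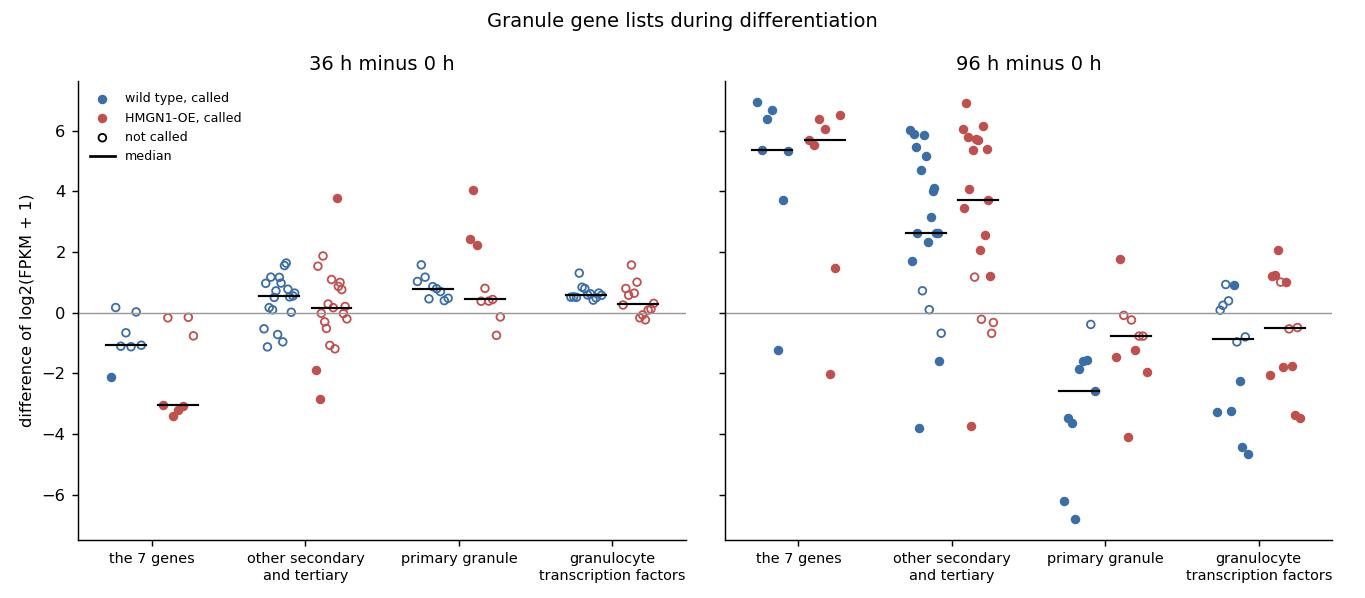
Difference of log2(FPKM + 1) at 36 and 96 h from 0 h on the deposited scale for the 7 genes, 19 other secondary and tertiary granule genes, 9 primary granule genes, and 12 granulocyte transcription factors, with filled points for called genes and bars for medians. At 96 h the medians are 5.37 and 5.69 for the 7 genes and -2.59 and -0.77 for primary granule genes, the last of which is above 0 in HMGN1-OE cells after centring.

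Of 12 transcription factors of granulocytes, wild-type cells had 5 called lower and 1 higher between 0 and 96 h, against 77.2% and 4.31% of all tested genes. HMGN1-OE cells had 5 called lower and 4 higher, against 62.4% and 5.08%. Myb and Myc, factors of cycling progenitors, had differences of -4.66 and -4.42 in wild-type cells and -3.47 and -3.37 in HMGN1-OE cells. Cebpe, which encodes the factor of secondary granule genes, was at 134 and 42.7 FPKM in wild-type and 87.8 and 97.8 FPKM in HMGN1-OE cells at 96 h, from 43.2 and 35.7 FPKM and from 23.3 and 19.4 FPKM at 0 h. It was called higher at 96 h in HMGN1-OE cells, at 2.07 (adjusted p = 0.00064, limma), and in wild-type cells its difference was 0.93 (adjusted p = 0.107). The change was not shown to differ between genotypes, with an interaction of 1.14 (adjusted p = 0.81, limma), and after centring it was called higher in both, at 2.78 for wild-type and 3.39 for HMGN1-OE cells. None of the 12 was called between genotypes at any time by limma, and 1 had an unadjusted p-value under 0.05, at 36 h. After centring, wild-type cells had 7 of the 12 called higher and 5 lower from 0 to 96 h, against 36.5% and 33.8% of all tested genes. HMGN1-OE cells had 7 higher and 4 lower, against 30.9% and 32.5%.

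Of 9 receptors, partners, and inhibitors of the encoded proteins, 5 were tested. Pecam1, the partner of CD177, had differences of -3.35 and -2.65 from 0 to 96 h while Cd177 rose. Timp2, an inhibitor of metalloproteinases, and Fpr2, a receptor for the peptide from CAMP, were called higher at 96 h by 1.87 and 3.82 in wild-type cells and by 0.79 and 2.15 in HMGN1-OE cells. Both were at most 0.31 FPKM at 0 and 36 h and passed the filter through 96 h libraries alone, so a higher level at 96 h was built into these tests. At 96 h Fpr2 was called lower in HMGN1-OE cells, at -1.69 (adjusted p = 0.000367, limma), as was Fpr1 of the granule list, at -1.39 (adjusted p = 0.00426). Both calls were lost after centring, where the differences were -2.09 and -1.79 (adjusted p = 0.218 for both). Timp1, Timp3, and Lrp2 were near the level of genes without signal.

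At 96 h the same markers were read beside the calls of Mmp9. The eosinophil granule genes Epx, Prg2, and Prg3 were called lower in HMGN1-OE cells, at -2.14, -2.19, and -1.94, 3 of the 4 tested of 6 listed. None was called after centring, where the differences were -2.54, -2.59, and -2.34. The 6 markers summed to 1023 and 2229 FPKM in wild-type and to 214 and 528 FPKM in HMGN1-OE libraries, and Il5ra and Ccr3 were at most 0.45 FPKM. Monocyte and macrophage markers summed to between 49.8 and 78.0 FPKM at 96 h in both genotypes, with none of 6 tested called between genotypes by limma or at an unadjusted p-value under 0.05, and Cx3cr1 was at most 0.22 FPKM. Of the 6 neutrophil maturation markers tested, Retnlg was called lower in HMGN1-OE cells at 96 h, at -1.66 (adjusted p = 0.0293, limma), with 139 and 151 FPKM in wild-type and 45.5 and 45.1 FPKM in HMGN1-OE libraries. After centring its difference was -2.06 and was not called. S100a9 was called higher, at 8.53, with the first wild-type library listed near 0. The part of these cells and of maturation in the levels of Mmp9 and Mmp8 was not tested.

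The 10 genes most like the mean of the 7 over the 12 centred libraries, each of the 7 scaled to unit SD first, had Pearson's r of 0.986 to 0.991. They were Stfa2, Zdhhc9, Stfa2l1, Tnfaip8l2, Ddhd1, Rgs2, BC117090, 2010005H15Rik, Olfm4, and Gtf2ird2. Of these, Stfa2, Stfa2l1, BC117090, and 2010005H15Rik belong to the stefin A family of near-identical copies, and their own values are uncertain. Their mean FPKM at 96 h was between 1180 and 4020 in either genotype, and that of Olfm4 was 546 and 485. The other 5 had means of 4.07 to 30.4 FPKM in all 6 groups, while the median gene fell at 96 h.

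Camp, Ngp, and Ltf lie in this order on chromosome 9 in the RefSeq annotation, with 28 other protein-coding genes between Camp and Ltf. Of these, 13 were tested. Wild-type cells had 1 called higher and 8 lower between 0 and 96 h, against 4.31% and 77.2% of all tested genes, with a median of -1.26 against -1.75 and a highest value of 0.76. In HMGN1-OE cells 1 was called higher and 6 lower, against 5.08% and 62.4%, with a median of -1.10 against -1.28 and a highest value of 1.87.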

How the data were processed

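RNA-seq libraries of 6 groups, 2 per group, were analysed as deposited. The authors deposited FPKM values for 23309 genes and 92 ERCC RNAs in 12 libraries. Per the study's methods, reads were aligned with Bowtie and values rescaled by loess on the ERCC RNAs, whereas the submitters' processing notes name HISAT, Cufflinks 2.0.0 and mm9. Which of these tools made the deposited values is not settled by the sources used here. Whichever it was, the deposited values are level on the synthetic RNAs. Averaged over the 30 of them whose level exceeded 1 FPKM, log2 deviations lay between -0.0225 and 0.0138. No counts were used, so read depth and intervals from it are not given.

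Groups came from the sample labels. All 12 libraries were fitted with a mean per group in limma 3.58.1 (R 4.3.3, eBayes with trend) on log2(FPKM + 1). The 11516 genes that reached 1 FPKM in 2 or more libraries were tested, with Benjamini-Hochberg adjusted p-values and a threshold of 0.05. The estimated prior degrees of freedom were infinite, so variances follow the trend and not the spread of a gene's own libraries. The labels do not say that libraries came from separate mice, and p-values measure only the spread between these libraries. Shares were compared by exact permutation over 3 splits, which cannot go below p = 0.333. Python 3.11.15, numpy 2.4.6, pandas 2.3.3, scipy 1.17.1 and matplotlib 3.10.9 were used for the rest. The limma step was tested on simulated data.

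The alternatives were pseudocounts of 0.1 and 0.01, no filter, a mean of at least 5 FPKM, centring on the median, quantile normalization, limma without trend or with robust fitting, no moderation, only the libraries compared, and leaving out each library. The sum without S100a8 and S100a9 and a block on the digit that ends the column names were added after seeing the data.

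The members and lists were chosen with earlier results of these data known. All 7 members are named, with at most 4 called genes per list by size of change, the 10 genes most like the members, and genes needed to read a result, which were chosen after their values were seen. Spi1 was matched as Sfpi1. Promoters are from RefSeq, GRCm38.p6.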

Additional observations from a re-analysis of the deposited data

Results flagged for a closer look

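The difference of Mmp9 between 0 and 96 h was smaller in HMGN1-OE cells in a test of the interaction itself. The interaction of genotype with time was -2.24 on the log2(FPKM + 1) scale (SE 0.49, adjusted p = 0.00106, limma), with 9.25 and 21.7 FPKM at 96 h in wild-type and 3.80 and 1.75 FPKM in HMGN1-OE libraries. The call was not made with a pseudocount of 0.1 or 0.01, without the filter, after centring or quantile normalization, without trend or moderation, or without the second HMGN1-OE or second wild-type library at 96 h.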

How the results depend on the processing

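All 7 calls between 0 and 96 h but that of Mmp8 were made under every alternative that tested the gene. Counts of members called, out of 7, moved as follows, and the causes were not tested. With a mean of at least 5 FPKM or with robust fitting, 2 of the 3 between genotypes at 36 h were called. From 36 to 96 h in wild-type cells (6 called) it was 7, with Mmp8, centred or with quantile normalization. Between genotypes at 36 h (3 called), 0 were called without the filter, centred, with quantile normalization, or without moderation, 1 without trend or with only the libraries compared, and 1 to 3 when a library was left out. Between genotypes at 96 h (1 called), 0 were called with a pseudocount of 0.01, without the filter, with a mean of at least 5 FPKM (which drops Mmp9 itself), centred, with quantile normalization, without trend, without moderation, or with only the libraries compared, and 0 to 2 when a library was left out. From 0 to 36 h in wild-type cells (1 called), 0 were called without the filter, centred, with quantile normalization, without trend, with robust fitting, without moderation, or with only the libraries compared, and 0 to 1 when a library was left out: the call of Ltf was lost without either library of wild-type or HMGN1-OE cells at 36 h and without the first wild-type library at 0 h. In HMGN1-OE cells (4 called) it was 0 without the filter, centred, with quantile normalization, or without moderation, 5 with only the libraries compared, Cd177 being the fifth, and 1 to 4 when a library was left out. From 36 to 96 h in HMGN1-OE cells (6 called) it was 7, with Mmp8, centred, with quantile normalization, with only the libraries compared, or without either wild-type library of 0 or 96 h. For the interaction from 0 to 36 h (0 called), 1 was called with only the libraries compared, and 0 to 1 when a library was left out, with 1 without either wild-type library at 96 h. For the interaction from 0 to 96 h (1 called), 0 were called with a pseudocount of 0.1 or 0.01, without the filter, with a mean of at least 5 FPKM, centred, with quantile normalization, without trend, or without moderation, and 0 to 1 when a library was left out.

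Mmp8 changed sign in wild-type cells: from 36 to 96 h it was 2.21 centred and 2.42 with quantile normalization, and -0.53 to 0.30 when a library was left out, and from 0 to 96 h it was 0.62 and 0.82. The difference in share at 0 h was -0.0155 to 0.00502 percentage points when a library was left out, above 0 without the first wild-type library, and at 96 h it was -2.64 to -1.57. Over all genes, calls between genotypes at 0, 36, and 96 h numbered 157, 145, and 77, against 12, 6, and 7 centred, 18, 7, and 26 with quantile normalization, 6, 15, and 15 without the filter, 30, 28, and 7 without trend, and 3, 2, and 2 without moderation. A block on the digit 0 or 1 that ends the column names, added after seeing the data, called 0 members from 0 to 36 h in wild-type cells, where Ltf was at -2.12 (adjusted p = 0.0727, limma). It called 2 between genotypes at 36 h, without Ngp (-2.12, adjusted p = 0.108), and changed no other call of a member that the text gives. Over all genes it called 139, 116, and 70 between genotypes. The digits are not shown to be the numbers in the titles, and libraries with the same digit did not deviate together: between groups, the difference between the libraries correlated across genes by more than 0.1 in 3 of 15 pairs of groups (r from -0.37 to 0.18). Levels near 0.1 FPKM limit what can be read of Mmp9 before 96 h.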
